A study of Mus musculus with 6 samples.

Results

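Transcripts of platelets and of their parent cells, the megakaryocytes, were followed in hearts of mice lacking miR-204 and of wild-type mice after transaortic constriction, surgery in which a band around the aorta makes the heart pump against a higher pressure. The KO-TAC group held 3 heart libraries of genotype miR-204-/- and the WT-TAC group 3 heart libraries of genotype WT, all taken 5 weeks after the operation, so every heart compared here had been operated on. The strain, the sex and the age of the mice, the way the allele was made, the number of animals behind a library and any flushing of blood from the hearts are not stated in the labels, so a p-value covers no more than the spread between libraries, which may be technical. The 10 transcripts described, Pf4, Ppbp, Itga2b, Itgb3, Gp1ba, Clec1b, Tubb1, Rgs18, Alox12 and F5, are 10 of the 24404 genes in the count table. They were selected on this same contrast, because platelet transcripts had been seen to be lower in KO-TAC. Their difference between the genotypes is therefore a description and supports nothing by itself. Where calls from the fit over all genes are counted among them, the share of all genes called stands beside the count and nothing is read from it.

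Platelets are cell fragments without a nucleus that megakaryocytes release into the blood, and they carry messenger RNA and granule proteins from the parent cell. At an injured vessel wall they attach through a receptor for von Willebrand factor, bind each other through a fibrinogen receptor, and release chemokines and clotting proteins from their granules. In RNA of a whole heart such transcripts are those of a minor cell type among cardiomyocytes, endothelial cells and fibroblasts. In bulk RNA, fewer platelets and less RNA per platelet cannot be told apart.

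The libraries had 6609315, 8494415 and 7013199 counts in KO-TAC and 6411538, 8571737 and 7207111 in WT-TAC. The 10 transcripts took 372, 285 and 271 of these counts in KO-TAC and 1520, 882 and 503 in WT-TAC, so single transcripts rest on few reads, down to 0 for Gp1ba in KO-TAC replicate 3. Cardiomyocyte markers, which check the tissue, summed to 145867 to 225273 CPM (counts scaled to library size, corrected for composition by TMM) in KO-TAC and 165063 to 184178 CPM in WT-TAC. A pair of libraries needs to be kept in view. WT-TAC replicate 1 had the highest level of each of the 10 transcripts. The column of KO-TAC replicate 3 begins with the same number as that of WT-TAC replicate 3, and not with the number in its own label. It was assigned by its library index. Over all tested genes KO-TAC replicate 3 correlated best with WT-TAC replicate 3 (r = 0.955 across genes, which are not independent replicates), against 0.930 and 0.937 with the other KO-TAC libraries. Values are therefore also given without either library.

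Summed over the 10 transcripts, the level was 54.4, 34.6 and 40.0 CPM in KO-TAC replicates 1 to 3, against 239, 101 and 68.9 CPM in WT-TAC replicates 1 to 3. The groups did not overlap. The mean was 43.0 ± 10.2 CPM in KO-TAC and 136 ± 90.4 CPM in WT-TAC (SD, n = 3 each), a ratio of 0.315. Without WT-TAC replicate 1 the ratio was 0.506, and with each other library left out it ran from 0.253 to 0.346. Without Itgb3, F5 and Rgs18, which cells other than platelets also express, it was 0.346. Expression of the remaining transcripts outside platelets was not examined, so 0.346 is not shown to be a ratio of platelet-only transcripts.

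**Figure D1:**
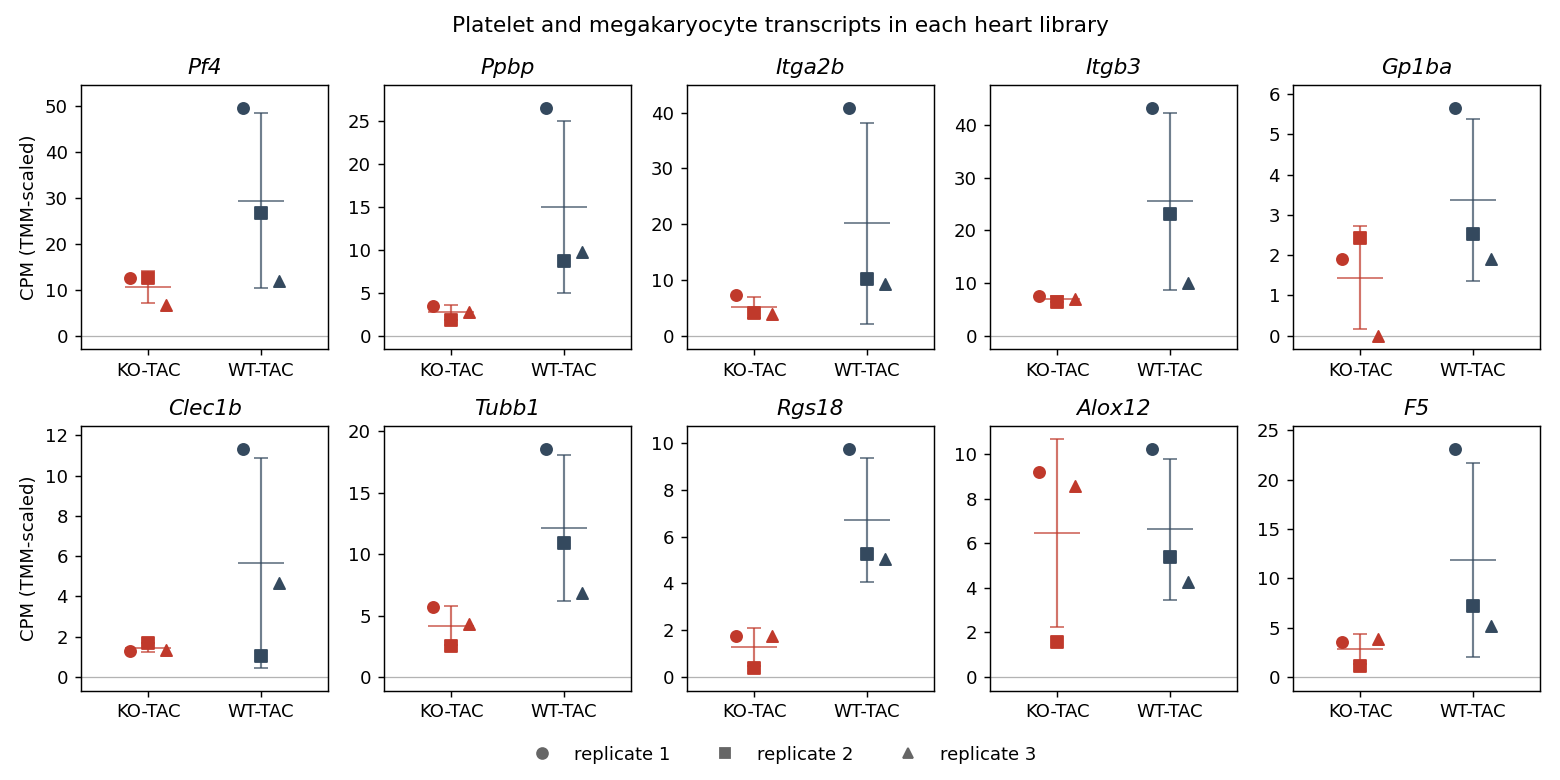
Level of each of the 10 transcripts in CPM (vertical axis, a separate linear scale per gene) in the 3 KO-TAC and 3 WT-TAC heart libraries; symbols mark the replicate, horizontal lines the group mean and bars 1 SD. WT-TAC replicate 1 is the highest library in each panel, and the KO-TAC libraries lie below all WT-TAC libraries in 6 of the 10. The same held for 3.72% of all tested genes, and the 10 were chosen on this contrast.

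The chemokines of the alpha granule come first. Pf4 (platelet factor 4, or CXCL4) and Ppbp (pro-platelet basic protein, the precursor of CXCL7) are stored in alpha granules and released on activation. Both lie on the plus strand of chromosome 5 (GRCm38), Ppbp from 90768518 to 90770063 and Pf4 from 90772435 to 90773383, with 2371 bases between them. Pf4 had 12.6, 12.6 and 6.65 CPM in KO-TAC replicates 1 to 3, against 49.7, 26.7 and 11.9 CPM in WT-TAC replicates 1 to 3. The groups overlapped through WT-TAC replicate 3, which was lower than KO-TAC replicates 1 and 2, and the log2 fold change was −1.46 ± 0.46 (SE). Ppbp had 3.51, 1.82 and 2.81 CPM in KO-TAC replicates 1 to 3, against 26.6, 8.72 and 9.72 CPM in WT-TAC replicates 1 to 3. Every KO-TAC library was below every WT-TAC library for Ppbp, with a log2 fold change of −2.46 ± 0.49 (SE), the lowest of the 10. It stood at −1.77 without WT-TAC replicate 1, when Pf4 stood at −0.87.

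Megakaryocytes transcribe the members, although other cells also express some of them, among them Itgb3, F5 and Rgs18. Genes of the megakaryocyte lineage are known for sites of GATA and ETS factors. For that reason the 150 bases before the start of 3 members are shown. They are from RefSeq (GRCm38.p6), written 5′ to 3′ on the plus strand, which is the coding strand of all 3. Capitals mark matches to the core that GATA factors bind, which reads GATAA on one strand and TTATC when read from the other strand. They also mark the core that ETS factors bind, which reads GGAAG on one strand and appears as CTTCC when read from the other. The stretches are chr5:90772285-90772434 for Pf4, chr5:90768368-90768517 for Ppbp and chr11:70638972-70639121 for Gp1ba.
Pf4: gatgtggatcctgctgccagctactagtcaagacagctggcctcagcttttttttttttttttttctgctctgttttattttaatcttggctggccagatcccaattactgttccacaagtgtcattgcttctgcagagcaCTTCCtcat
Ppbp: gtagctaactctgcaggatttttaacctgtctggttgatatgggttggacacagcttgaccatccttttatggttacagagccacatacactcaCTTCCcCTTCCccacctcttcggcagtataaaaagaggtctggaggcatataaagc
Gp1ba: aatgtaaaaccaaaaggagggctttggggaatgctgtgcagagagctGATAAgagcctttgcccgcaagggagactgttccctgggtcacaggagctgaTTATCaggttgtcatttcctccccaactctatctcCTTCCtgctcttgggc

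RefSeq promoters were found for 8 of the 10 genes, all but Itgb3 and Rgs18. In the 250 bases before the start, searched on both strands, the GATA core was present in 2 of 8, Gp1ba (103 and 51 bases before the start) and Clec1b, and in 22.6% of 32851 promoters of all genes. The ETS core was present in 7 of 8, all but Clec1b, and in 64.1% of all promoters. TATAAA was present in 2 of 8, Ppbp and Clec1b, and in 12.4% of all. In Ppbp it lies 30 and 8 bases before the start, and a pair of adjacent ETS cores 56 and 50 bases before it. These matches describe letters in the window and were not tested as binding sites.

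Itga2b and Itgb3 encode the chains of the fibrinogen receptor, integrin alpha-IIb beta-3, through which platelets bind each other. Itga2b is largely restricted to the platelet lineage, whereas Itgb3 is also made by other cells, among them endothelial cells. Itga2b had 7.31, 4.13 and 3.84 CPM in KO-TAC replicates 1 to 3, against 40.9, 10.2 and 9.31 CPM in WT-TAC replicates 1 to 3. The groups did not overlap, although WT-TAC replicates 2 and 3 lay much nearer to KO-TAC than WT-TAC replicate 1 did. Its log2 fold change was −1.98 ± 0.58 (SE), and −0.95 without WT-TAC replicate 1. Itgb3 had 7.60, 6.32 and 6.95 CPM in KO-TAC replicates 1 to 3, against 43.3, 23.2 and 10.0 CPM in WT-TAC replicates 1 to 3. The KO-TAC libraries were close to each other and all lower than the WT-TAC libraries, with a log2 fold change of −1.87 ± 0.44 (SE), and −1.26 without WT-TAC replicate 1. Per kilobase of exon the chains were at similar levels, Itga2b at 0.934 ± 0.352 RPKM and Itgb3 at 1.18 ± 0.108 RPKM in KO-TAC, against 3.69 ± 3.30 and 4.32 ± 2.84 RPKM in WT-TAC (SD, n = 3 each). Both genes lie on chromosome 11, Itga2b from 102453297 to 102470122 on the minus strand and Itgb3 from 104608000 to 104670476 on the plus strand.

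Gp1ba and Clec1b encode adhesion and activation receptors. Gp1ba, on chromosome 11 from 70639122 to 70642036, is the ligand-binding chain of the GPIb-IX-V complex, the receptor for von Willebrand factor, and Clec1b encodes CLEC-2, the platelet receptor for podoplanin. Gp1ba had 13, 20 and 0 counts in KO-TAC replicates 1 to 3, against 36, 22 and 14 in WT-TAC replicates 1 to 3. In CPM this is 1.90, 2.43 and 0 against 5.66, 2.53 and 1.92, and a count of 0 in KO-TAC replicate 3 allows a level of up to 0.443 CPM (3 counts, counting error only). The groups overlapped, and the log2 fold change of −1.19 had an SE of 0.92. Without WT-TAC replicate 1 and KO-TAC replicate 3 it was −0.050.

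Clec1b had 9, 14 and 9 counts in KO-TAC replicates 1 to 3, against 72, 9 and 34 in WT-TAC replicates 1 to 3. WT-TAC replicate 2, at 1.03 CPM, was below all KO-TAC libraries, which stood at 1.32, 1.70 and 1.33 CPM, so the groups overlapped (log2 fold change −1.94 ± 0.76, SE, and −0.96 without WT-TAC replicate 1). Clec1b, on chromosome 6 from 129397297 to 129409335, overlaps Clec9a on the same strand in the annotation, and reads in shared sequence could not be assigned to one of them with certainty.

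Tubb1 and Rgs18 belong to the inside of the platelet. Tubb1 encodes beta-1 tubulin, which forms the ring of microtubules that gives a resting platelet its disc shape. It had 5.70, 2.55 and 4.29 CPM in KO-TAC replicates 1 to 3, against 18.6, 10.9 and 6.85 CPM in WT-TAC replicates 1 to 3. Each KO-TAC library was lower than each WT-TAC library, by a narrow gap between KO-TAC replicate 1 and WT-TAC replicate 3 (log2 fold change −1.53 ± 0.45, SE). Rgs18 encodes a regulator that shortens signalling by G proteins in platelets. It had 1.75, 0.365 and 1.77 CPM in KO-TAC replicates 1 to 3, against 9.75, 5.28 and 5.07 CPM in WT-TAC replicates 1 to 3. For Rgs18 the gap between the groups was wide beside the spread of WT-TAC replicates 2 and 3, and its log2 fold change of −2.37 ± 0.64 (SE) ran from −2.67 to −1.91 with 1 library left out, the highest without KO-TAC replicate 2, which had only 3 counts. Tubb1 lies on chromosome 2 from 174450695 to 174457882 on the plus strand, and Rgs18 on chromosome 1 from 144752683 to 144775435 on the minus strand.

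Alox12 and F5 are an enzyme and a clotting factor. Alox12 encodes the 12-lipoxygenase of platelets, which turns arachidonic acid into 12-HETE. It had 9.21, 1.58 and 8.57 CPM in KO-TAC replicates 1 to 3, against 10.2, 5.39 and 4.25 CPM in WT-TAC replicates 1 to 3. Alone of the 10 it was about equal in the group means, at 6.45 ± 4.23 CPM in KO-TAC and 6.62 ± 3.17 CPM in WT-TAC (SD, n = 3 each). Its log2 fold change was −0.04 ± 0.58 (SE), and it turned to 0.43 without KO-TAC replicate 2 and 0.41 without WT-TAC replicate 1. F5 encodes factor V, the cofactor of factor Xa, part of which is carried in platelet alpha granules. It had 3.51, 1.09 and 3.84 CPM in KO-TAC replicates 1 to 3, against 23.1, 7.23 and 5.204 CPM in WT-TAC replicates 1 to 3. The groups did not overlap, and the log2 fold change was −2.08 ± 0.62 (SE), and −1.15 without WT-TAC replicate 1. Alox12 lies on chromosome 11 from 70241457 to 70255353 on the minus strand. F5, on chromosome 1 from 164151838 to 164220277 on the plus strand, overlaps the antisense lincRNA Gm16548 and the pseudogene Gm16588, so its reads may be shared with them.

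Over the 10 transcripts the median log2 fold change was −1.90, beside 0.0012 over all 12487 tested genes, and −1.03 without WT-TAC replicate 1. Without KO-TAC replicate 3, the library with the differing column number, this median was −1.84 and the ratio of summed CPM 0.326. All 10 passed the filter on low counts. Its level, 1.41 CPM in at least 3 libraries, was missed by 1 KO-TAC library for Gp1ba, Rgs18 and F5, and by 2 KO-TAC libraries and 1 WT-TAC library for Clec1b. The groups did not overlap, with KO-TAC lower, for 6 of the 10, Ppbp, Itga2b, Itgb3, Tubb1, Rgs18 and F5, and for 3.72% of all tested genes. By the quasi-likelihood test of edgeR, adjusted after Benjamini-Hochberg, 0 of the 10 passed at an adjusted p under 0.05, where 0.00801% of all genes passed as lower. At an unadjusted p under 0.05 there were 8, all but Gp1ba and Alox12, beside 1.57% of all genes. DESeq2 called Ppbp and Itgb3, where it called 0.0508% of genes as lower. Without a filter on low counts edgeR called Ppbp, Itgb3 and F5, where 0.0621% of genes were called as lower, and without WT-TAC replicate 3 it called Itgb3, where the share was 0.0156%. As these transcripts were chosen on this contrast, nothing is read from the counts.

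**Figure D2:**
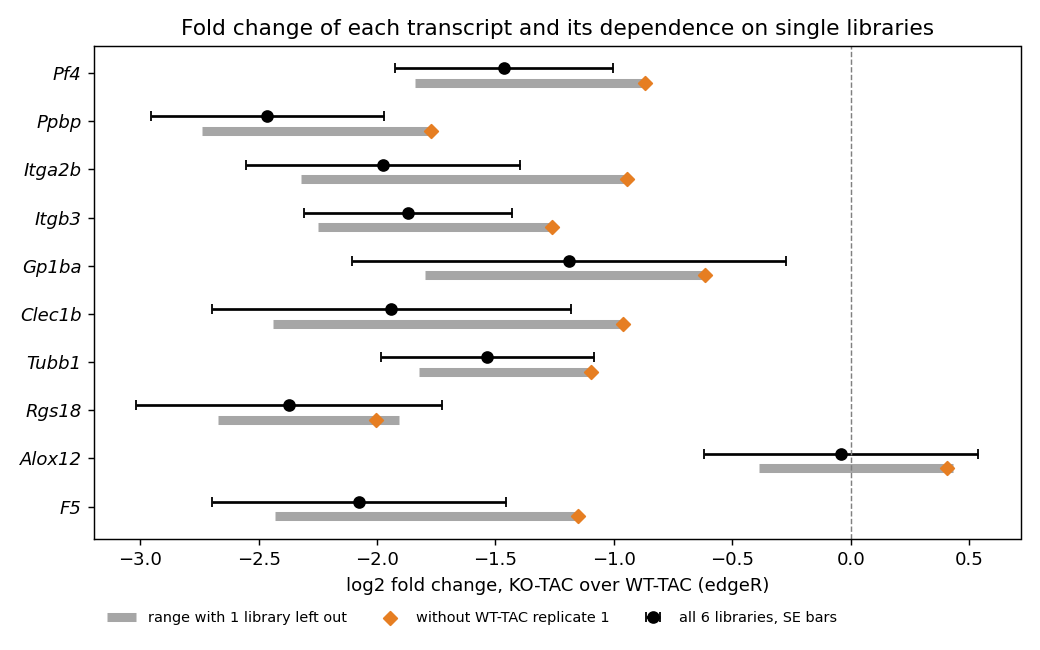
Log2 fold change of KO-TAC over WT-TAC (horizontal axis) for the 10 transcripts, fitted in edgeR with all 6 libraries (points, bars are SE), with the range when 1 library is left out (grey) and the value without WT-TAC replicate 1 (diamonds). The value without WT-TAC replicate 1 is the one nearest to 0 for 8 of the 10, and Alox12 alone crosses 0.

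Per kilobase of exon, Pf4 was the highest of the 10 in both genotypes, at 14.7 ± 4.77 RPKM in KO-TAC and 40.9 ± 26.4 RPKM in WT-TAC (SD, n = 3 each). In KO-TAC Tubb1 (2.97 ± 1.12 RPKM), Ppbp (2.50 ± 0.781) and Alox12 (1.58 ± 1.04) came next, and their ranges overlapped. In WT-TAC Ppbp (13.9 ± 9.27 RPKM) and Tubb1 (8.61 ± 4.23) came next, and their ranges overlapped. Alox12 stood 4th in KO-TAC and 7th in WT-TAC. Clec1b was the lowest in both, at 0.284 ± 0.0429 RPKM in KO-TAC and 1.11 ± 1.02 RPKM in WT-TAC, and its range overlapped that of Gp1ba in both. This rank rests on an exon union of 5103 bases. In mean CPM Clec1b stood above Gp1ba in WT-TAC (5.67 against 3.37 CPM).

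The transcripts ranked the libraries much alike within WT-TAC and less so within KO-TAC. In WT-TAC, replicate 1 was the highest library for 10 of 10 and replicate 3 the lowest for 8 of 10. In KO-TAC, the highest library was replicate 1 for 5 of 10, replicate 2 for 3 and replicate 3 for 2. The lowest was replicate 2 for 6 of 10, replicate 3 for 3 and replicate 1 for 1. Deviations of log2 CPM from the genotype means, pooled over both genotypes, were positively correlated in 42 of 45 pairs of transcripts. The median r was 0.65 over 6 libraries that share WT-TAC replicate 1. Clec1b and Gp1ba followed the mean pattern less closely (r = 0.606 and 0.399) than Itga2b (0.984) and Ppbp (0.965) did. Each transcript is itself part of that mean, which raises its r. Among the 12487 tested genes Clec1b and Gp1ba ranked 2170 and 3638 in this likeness, and Itga2b and Ppbp 20 and 63.

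Over all 6 libraries the tested genes outside the 10 that were most like their mean log2 CPM were Ints2 (r = 0.987), Slc2a10 (0.984), Cdkl2 (0.978), Apaf1 (0.977) and Itga1 (0.976), and 2 of the 10, Itga2b (0.988) and Ppbp (0.979), stood among them. The mean contains Itga2b and Ppbp, which raises their r, and does not contain the genes outside the 10. Ints2, a subunit of the Integrator complex that processes RNA, had 8.77, 6.08 and 6.65 CPM in KO-TAC replicates 1 to 3, against 29.4, 12.2 and 9.72 CPM in WT-TAC replicates 1 to 3. It thus shared the high value of WT-TAC replicate 1. On deviations from the genotype means the nearest were Sec22b (0.998), Mapkbp1 (0.997), Rai14 (0.991), Ints2 (0.990) and Ermard (0.990). These r describe 6 libraries and carry no p.

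Platelet genes outside the 10 were read from lists of surface receptors, granule proteins, signalling and cytoskeletal genes, megakaryocyte transcription factors, and clotting and fibrinolysis genes. Of 87 such genes 57 were tested, 34 lower and 23 higher in KO-TAC, with a median log2 fold change of −0.12. In edgeR 0 of the 57 passed, where 0.024% of all tested genes did in either direction, and DESeq2 and edgeR without a filter also called 0. At an unadjusted p under 0.05 there were 4 lower, beside 1.57% of all genes, and 1 higher, beside 1.36%. The 4 lower were Cd226, Nrgn, Bin2 and Plek, and the 1 higher was Plat, tissue plasminogen activator.

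Many surface receptors had too few reads to be tested. Of 17 such receptors 6 were tested, 4 lower and 2 higher, and the median log2 fold change was −0.56. Cd226, an adhesion receptor of platelets and of lymphocytes, had 2.05, 0.122 and 1.63 CPM in KO-TAC replicates 1 to 3, against 11.95, 5.85 and 3.29 CPM in WT-TAC replicates 1 to 3. Its groups did not overlap (log2 fold change −2.48 ± 0.77, SE, adjusted p = 0.999 in edgeR). P2ry12, the ADP receptor at which clopidogrel acts, had a log2 fold change of −0.92 ± 0.65 (SE, adjusted p = 0.999).

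The partners of Gp1ba in the von Willebrand factor receptor were among the 11 receptors under the filter. Gp1bb had 3, 0 and 0 counts in KO-TAC replicates 1 to 3, against 35, 13 and 8 in WT-TAC replicates 1 to 3. Gp5 had 3, 0 and 2 counts in KO-TAC, against 19, 26 and 8 in WT-TAC, in the same order of replicates. Gp9 had 7, 11 and 7 counts in KO-TAC, against 47, 4 and 27 in WT-TAC. Gp1bb and Gp5 did not overlap between the groups, while Gp9 overlapped through WT-TAC replicate 2, as Clec1b did. Together the 11 receptors had 6.72, 2.67 and 3.40 CPM in KO-TAC replicates 1 to 3, against 29.1, 8.61 and 11.2 CPM in WT-TAC replicates 1 to 3. The KO-TAC libraries were all lower. In edgeR without a filter the adjusted p was 0.428 for Gp1bb, 0.908 for Gp5 and 0.975 for Gp9.

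**Figure D3:**
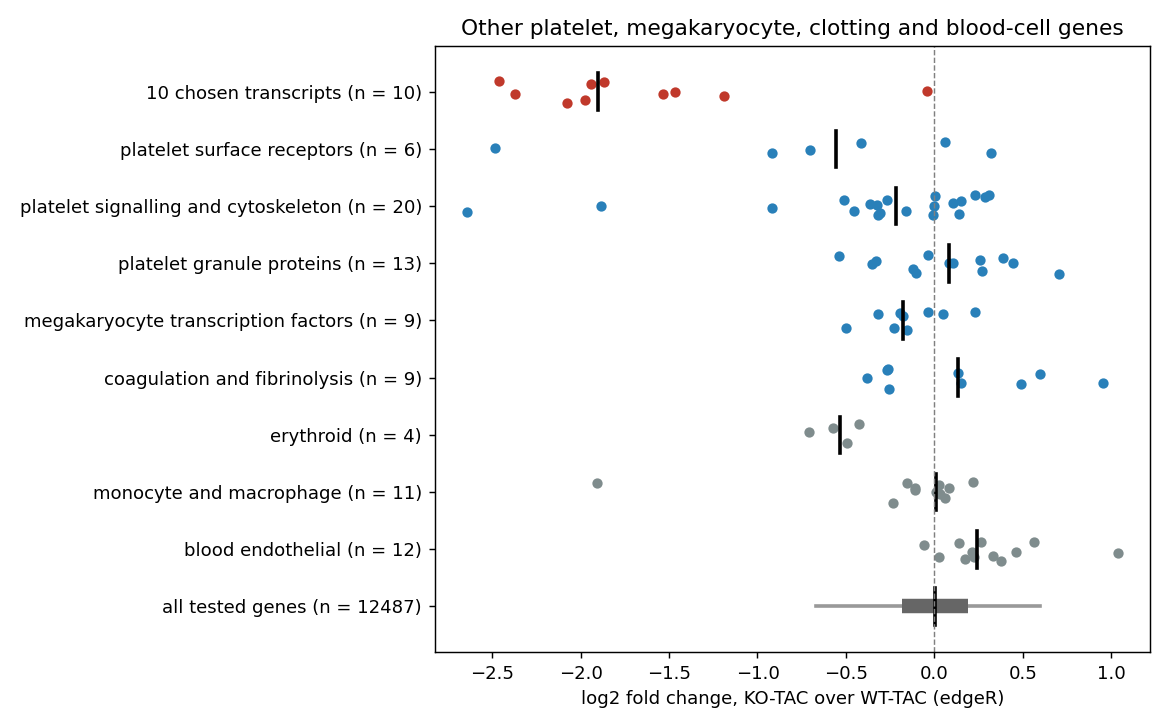
Log2 fold change of KO-TAC over WT-TAC (horizontal axis) for the 10 chosen transcripts and for the tested genes of other lists; each point is a gene, black lines are medians, and the bottom row gives the middle 50% (thick) and 90% (thin) of all tested genes. The medians were −1.90 for the 10 transcripts, −0.56 for surface receptors, −0.21 for signalling and cytoskeletal genes and 0.081 for granule proteins.

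Among signalling and cytoskeletal genes 13 of 20 tested were lower and 7 higher, and the median log2 fold change was −0.21. Nrgn, neurogranin, a calmodulin-binding protein of neurons whose transcript is also abundant in platelets, had 8.62, 1.09 and 4.58 CPM in KO-TAC replicates 1 to 3, against 54.9, 22.4 and 11.2 CPM in WT-TAC replicates 1 to 3. Its groups did not overlap (log2 fold change −2.64 ± 0.81, SE, adjusted p = 0.999 in edgeR). Bin2, a membrane-bending protein of platelets and leukocytes, had 2.49 ± 1.90 CPM in KO-TAC and 9.21 ± 6.13 CPM in WT-TAC (SD, n = 3 each), a log2 fold change of −1.89 ± 0.62 (SE, adjusted p = 0.999).

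Granule proteins were divided. Of 13 tested 6 were lower and 7 higher, and the median log2 fold change was 0.081. Several of these genes are also made by vessel walls, and the genes with the smallest p were Pdgfb, a growth factor (log2 fold change 0.44 ± 0.27, SE), and Vwf, von Willebrand factor, which endothelial cells make too (0.70 ± 0.48, SE). Vwf had 680, 375 and 154 CPM in KO-TAC replicates 1 to 3, against 189, 239 and 315 CPM in WT-TAC replicates 1 to 3, and the groups overlapped.

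Transcription factors of megakaryocytes had a median log2 fold change of −0.18, with 7 of 9 tested lower and 2 higher. Meis1 (−0.23 ± 0.22, SE) and Gata2 (−0.20 ± 0.24, SE), which endothelial and heart cells also express, had the smallest p. Gata1, a defining factor of megakaryocytes and red cell precursors, had 0 counts in each KO-TAC library, against 2, 2 and 0 in WT-TAC replicates 1 to 3, and Gfi1b had 0 in every library. Nfe2, a factor of late megakaryocytes, had at most 7 counts in a library. The other 9 of the 12 factors were counted in every library, with at least 17 counts each. Of the clotting and fibrinolysis genes 4 of 9 tested were lower and 5 higher, with a median of 0.13. Plat had 33.3, 25.03 and 16.8 CPM in KO-TAC replicates 1 to 3, against 6.76, 15.5 and 16.4 CPM in WT-TAC replicates 1 to 3 (log2 fold change 0.95 ± 0.35, SE, adjusted p = 0.999 in edgeR). Its groups did not overlap, with KO-TAC higher. Thbd, thrombomodulin of endothelial cells, had a log2 fold change of 0.60 ± 0.29 (SE, adjusted p = 0.999).

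Other cells of the blood are given beside the platelet transcripts, since blood in a sample brings all of them. Of 31 tested blood cell and endothelial genes 0 passed in edgeR, beside 0.024% of all genes, and DESeq2 called 0. At an unadjusted edgeR p under 0.05 there were 2 lower, Alas2 and Ccr2, beside 1.57% of all genes. There were also 2 higher, Kdr and Cldn5, beside 1.36%. The 4 tested red cell genes were all lower, with a median log2 fold change of −0.53. Alas2, the first enzyme of haem synthesis in red cell precursors, had 52.5, 33.5 and 22.6 CPM in KO-TAC replicates 1 to 3, against 65.3, 40.6 and 71.6 CPM in WT-TAC replicates 1 to 3 (log2 fold change −0.71 ± 0.30, SE, adjusted p = 0.999 in edgeR). Bpgm, an enzyme that sets the oxygen affinity of haemoglobin in red cells, had a log2 fold change of −0.49 ± 0.25 (SE, adjusted p = 0.999). The 7 red cell genes with any count, of 13 in the table, summed to 94.7, 68.8 and 58.7 CPM in KO-TAC replicates 1 to 3, against 120, 78.4 and 142 CPM in WT-TAC replicates 1 to 3, and these groups overlapped. The 6 globin genes on the list were at 0 in all libraries and gave no measure of blood.

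The red cell transcripts did not order the libraries as the platelet transcripts did. WT-TAC replicate 3 was the highest for red cell genes and the lowest of its group for the platelet sum. Counts of the 10 platelet transcripts per count of the red cell list were 0.574, 0.504 and 0.683 in KO-TAC replicates 1 to 3, against 1.99, 1.29 and 0.484 in WT-TAC replicates 1 to 3. The groups overlapped on this measure through WT-TAC replicate 3, and the ratio of means was 0.467.

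White cell and vessel markers gave other orders again. Neutrophil markers summed to 20.0, 7.17 and 7.83 CPM in KO-TAC replicates 1 to 3, against 35.9, 5.16 and 9.59 CPM in WT-TAC replicates 1 to 3, and the highest library was WT-TAC replicate 1, as for the platelet transcripts. Ngp, Camp, Mpo and Elane, which immature neutrophils make, had at most 1 count in a library. Ltf, of the same list, had 9, 0 and 1 counts in KO-TAC replicates 1 to 3, against 7, 2 and 51 in WT-TAC replicates 1 to 3. Its 6.98 CPM made up most of the neutrophil sum of WT-TAC replicate 3. Monocyte and macrophage markers summed to 250 to 462 CPM in KO-TAC and 314 to 346 CPM in WT-TAC, with Lyz2, Mrc1 and Csf1r the most abundant. Ccr2, the chemokine receptor of inflammatory monocytes, had 1.75, 1.94 and 1.77 CPM in KO-TAC replicates 1 to 3, against 9.75, 4.13 and 6.85 CPM in WT-TAC replicates 1 to 3. Its groups did not overlap, and its log2 fold change of −1.91 ± 0.53 (SE, adjusted p = 0.999 in edgeR) was the lowest of the 11 tested genes of this list. The other 10 ranged over both signs and overlapped between the groups. Blood endothelial markers summed to 1275 to 1694 CPM in KO-TAC and 1169 to 1337 CPM in WT-TAC, with 11 of 12 higher in KO-TAC. Kdr (log2 fold change 0.56 ± 0.20, SE) and Cldn5 (1.04 ± 0.37, SE) did not overlap between the groups, with KO-TAC higher (adjusted p = 0.999 for both in edgeR). Per count of endothelial markers the 10 platelet transcripts had 0.0321, 0.0208 and 0.0314 counts in KO-TAC replicates 1 to 3, against 0.184, 0.0757 and 0.0590 in WT-TAC replicates 1 to 3, without overlap. Lung markers, which check for a tissue that holds megakaryocytes, summed to 0.296 to 4.09 CPM in KO-TAC and 1.15 to 16.7 CPM in WT-TAC, the highest being WT-TAC replicate 3. There 115 counts were of Scgb1a1, a secretory gene of airways, while the surfactant genes and Ager had at most 3 each. Ager was highest in WT-TAC replicate 1. It had 2, 7 and 0 counts in KO-TAC replicates 1 to 3, against 13, 9 and 1 in WT-TAC replicates 1 to 3. The part of residual blood in the platelet difference was not tested.

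**Figure D4:**
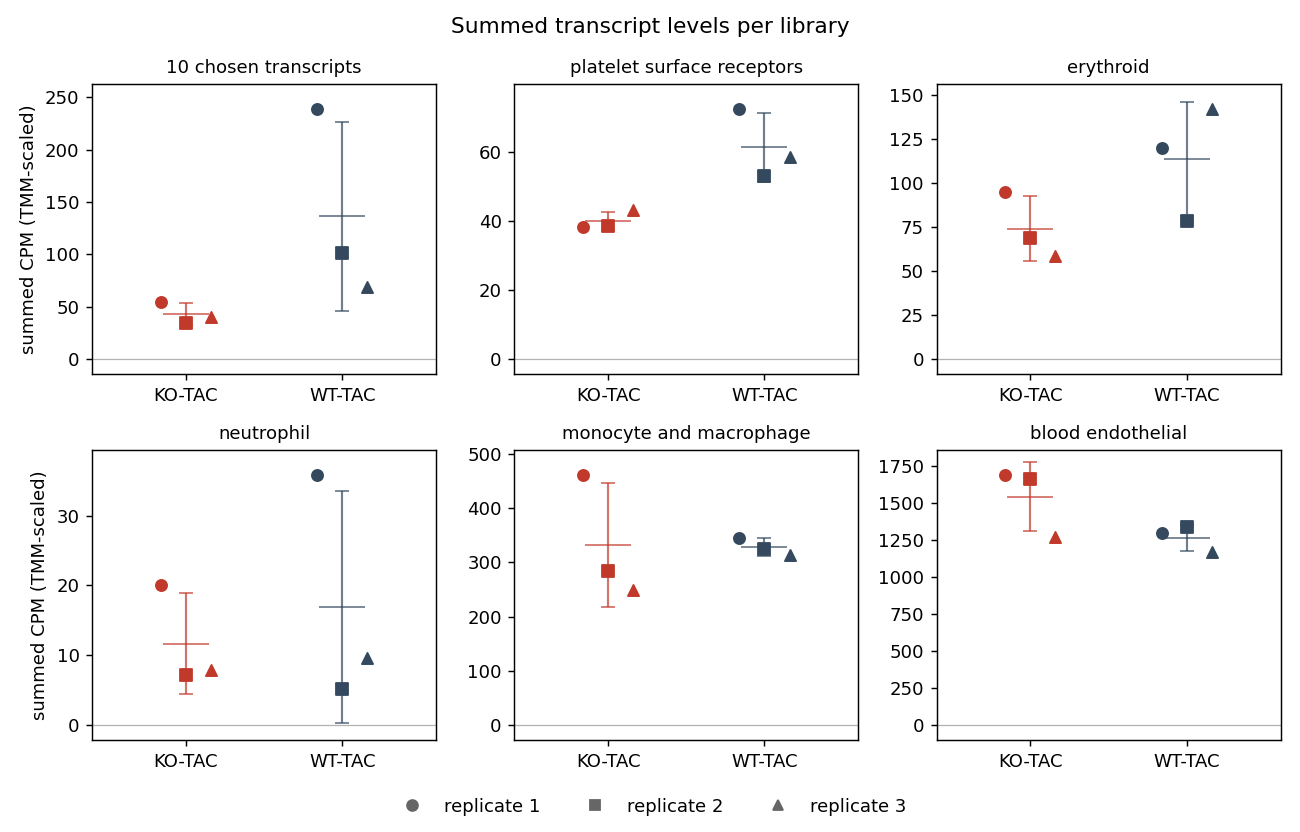
Summed CPM per library (vertical axis, a separate linear scale per panel) of the 10 platelet transcripts, of all 17 platelet surface receptors and of markers of red cells, neutrophils, macrophages and blood endothelium; symbols mark the replicate, lines the mean and bars 1 SD. The 2 platelet sums shown are lower in each KO-TAC library than in each WT-TAC library, while the sums of the other blood and vessel lists overlap. Sums of platelet granule proteins, of signalling and cytoskeletal genes and of megakaryocyte transcription factors are not shown and overlap too.

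The surface receptor sum includes P2ry1, an ADP receptor that other cells also express, which did not follow the 10 transcripts and had its lowest count in WT-TAC replicate 1, with 125, 190 and 208 counts in KO-TAC replicates 1 to 3, against 73, 228 and 229 in WT-TAC replicates 1 to 3.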

How the data were processed

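Mouse heart RNA was sequenced in 6 libraries. The authors deposited 1 table of unnormalized read counts by gene symbol. Tools listed in the submitters' processing notes are HISAT2 2.1.0, Subread, FastQC and edgeR, and mm10 or GRCm38 is listed as the build; the labels give no role for any of them. Per the labels' protocols, libraries came from a plain or a stranded kit, and which one is not given. KO-TAC replicate 3 was matched to its column by library index.

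The test was that of edgeR 4.0.16 (R 4.3.3): filterByExpr with a minimum count of 10, TMM scaling, robust quasi-likelihood fit of genotype, Benjamini-Hochberg adjustment over 12487 genes, called under 0.05. SEs were obtained by dividing the size of the log2 fold change by the root of F. log2 CPM used a prior count of 2, and RPKM divides TMM-scaled CPM by the union of exons in GENCODE M21. Gene positions are from GENCODE M21 (GRCm38). Of 197 listed symbols 194 were found, 3 by an older symbol (Mpig6b as G6b, Cavin2 as Sdpr, Epb42 as Epb4.2).

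Named are the 10 members, called genes of the other lists or else the 2 with the smallest p in platelet, clotting and red cell lists, and the 5 most alike genes by each measure. Gp1bb, Gp5, Gp9, Gata1, Gfi1b, P2ry1, Plek, Nfe2, Kdr, Cldn5, the macrophage genes, Scgb1a1, Ager and the neutrophil markers were named after their values were seen. The members and lists were chosen with earlier results of these data known. Alternatives were RLE, upper-quartile or no scaling, no filter or a minimum count of 30, DESeq2 1.42.0, limma-voom (limma 3.58.1), a replicate block, and each library left out. Totals of 6411538 to 8571737 counts leave the rarer transcripts limited by counting error.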

Additional observations from a re-analysis of the deposited data

How the results depend on the processing

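The number of genes called over the whole table was 3 with TMM, RLE, upper-quartile or no scaling and with a minimum count of 30. It was 21 without a filter on low counts, 17 in DESeq2, 0 in limma-voom (376 at an unadjusted p under 0.05), 6 with the replicate block, and 0 to 7 with 1 library left out, the lowest without WT-TAC replicate 1 (437 at an unadjusted p under 0.05) and the highest without KO-TAC replicate 2. Without both WT-TAC replicate 1 and KO-TAC replicate 3, an alternative chosen after seeing the data, it was 36. The cause of these moves was not tested. The median log2 fold change of the 10 platelet transcripts ran from −2.15 without WT-TAC replicate 3 to −1.03 without WT-TAC replicate 1, and was −1.02 without both doubted libraries and −1.60 with the replicate block. The summed CPM ratio ran from 0.253 to 0.506 with 1 library left out. Alox12 turned above 0 without KO-TAC replicate 2 (0.43), without WT-TAC replicate 1 (0.41) and without both doubted libraries (0.13), its lowest value with 1 library left out being −0.39. Of 148 values of single transcripts under the alternatives 145 were below 0. These values are refits of the same libraries on the contrast by which the transcripts were chosen. They are not independent, and nothing is read from their sign. Of the other platelet genes 0 were called with any 1 library left out, and 1, Clu, without both doubted libraries; of the blood cell genes 0 were called under any alternative. Libraries of the same replicate number did not all deviate together (r = 0.13, 0.011 and 0.26 across genes), so the numbers were not taken to pair the samples. With the block 0 of the 10 platelet transcripts were called, the lowest adjusted p being 0.0684 for Ppbp.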
